A study of Mus musculus with 15 samples.

Results

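The genes described here are homeobox transcription factors of mouse islets outside the well-known endocrine regulators: the Hox, Dlx, sine oculis (such as Six4), Lhx, Pou, Meis, Pbx, Msx, Gbx, Cux, Zfhx, Satb, Tgif, Barx, Pitx and Otx families. They were chosen by symbol alone, as every entry of the gene table whose symbol is 1 of these family names followed by a number. This gave 102 of 20308 entries, of which 27 passed a limit of 10 on the 75th percentile of the 15 libraries, the level the study used for expressed genes. Whole pancreatic islets of C57BL/6 mice were pooled from 6 mice on each of 5 days, split into 3 portions and transduced with an adenovirus for GFP (the control) or for a constitutively active (ca) form of mouse Nfatc1 or Nfatc2, calcium-responsive NFAT transcription factors. RNA of the whole islets was sequenced 48 hr later, which gave 5 libraries per virus, and replicates with the same number in the 3 groups share a day and a pool of mice. In the ca forms, serines of the regulatory domain are replaced by alanine. The CMV promoter of the viruses is not specific to a cell type, islets of all 3 groups received a virus, and untransduced islets were not analysed here. Neither age nor sex of the pooled mice is given in the sources used here.

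Homeobox factors bind DNA through the homeodomain, which recognises short sequences that many family members share. Much of their specificity comes from partners. Pbx and Meis, which with Tgif form the TALE class (named for an insertion that lengthens a loop of the homeodomain), bind DNA together with Hox factors. LIM-homeodomain factors such as Lhx and Isl1 act through the adaptor Ldb1, and sine oculis factors such as Six4 act with Eya and Dach proteins. Most of these families are best known for patterning the embryo and for specifying neurons, whereas islet cell identity is usually credited to factors outside the rule, such as Pdx1, Nkx6-1, Nkx2-2, Isl1 and Pax6. NFAT proteins bind DNA sites with the core GGAAA.

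Nfatc1 was at 24705 to 29292 normalized expected counts in the ca-Nfatc1 libraries against 166 to 291 with GFP, and Nfatc2 at 37600.3 to 89098 in the ca-Nfatc2 libraries against 414 to 693 with GFP. Normalized expected counts are estimated reads per gene divided by a size factor for the library, with no correction for gene length, so levels are compared between libraries and not between genes. The libraries held 13.36M to 18.87M expected counts with GFP, 15.32M to 21.13M for ca-Nfatc1 and 13.52M to 19.84M for ca-Nfatc2. Of the 8 beta cell markers examined, all of which passed the limit of 10, 7 were lower with ca-Nfatc1 and 8 with ca-Nfatc2 than with GFP. Of all 14151 genes tested, 28.4% were called lower with ca-Nfatc1 and 32.8% with ca-Nfatc2, in the test described below. Because the RNA came from whole islets, fewer cells of a type and less RNA per cell cannot be told apart.

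Some families were present as a whole and patterning factors mostly were not. Among those above the limit were 3 of 3 Meis, 2 of 2 Cux and 3 of 3 Zfhx genes. By contrast, 4 of 38 Hox, 1 of 8 Lhx, 2 of 14 Pou, 2 of 6 sine oculis, 1 of 3 Msx, 1 of 2 Gbx and 2 of 4 Tgif genes passed, and none of the 6 Dlx, 2 Barx, 3 Pitx and 2 Otx genes did. In 18 of the 27 every one of the 15 libraries was above 10. Some genes passed through 1 or 2 groups: Gbx1 and Hoxc10 had no GFP library above 10, and Hoxb3, Hoxc10 and Pou3f4 had fewer than 8 libraries above it. In those 18 members the median coefficient of variation between the 5 days was 10.7% with GFP, 9.75% in the ca-Nfatc1 group and 12.9% in the ca-Nfatc2 group. Tgif1 varied most with ca-Nfatc2 (80.7%), where 1 library stood apart.

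With ca-Nfatc1, 10 of the 27 members rose and 3 fell against GFP, at an adjusted p under 0.05. The test was limma on log2(value + 1) over all 15 libraries, fitted and adjusted over 14151 genes, and of these 28.4% were called higher and 28.4% lower. With ca-Nfatc2, 8 members were higher and 9 lower than with GFP, against 35.7% and 32.8% of all genes tested. Between the 2 factors, 1 member was higher and 12 were lower with ca-Nfatc2 than with ca-Nfatc1, against 23.6% and 25.7% of all genes tested. The median difference over the members on the log2 scale was 0.13 for ca-Nfatc1 against GFP, -0.10 for ca-Nfatc2 against GFP and -0.37 for ca-Nfatc2 against ca-Nfatc1, beside -0.02, 0.01 and -0.04 over all genes tested. Of all genes called with ca-Nfatc1, 49.96% were higher, compared with 38.3% after quantile normalization and 57.9% with equal library totals. Both comparisons with GFP use the same 5 control libraries. Gbx1, Tgif2, Hoxc10, Zfhx2, Cux1 and Six5 were higher and Pou3f4, Meis1 and Meis2 lower in both of them. Gbx1, Hoxc10 and Pou3f4 are in these counts although each passed the limit only through the groups where it was high. Hoxb3 is counted as well and passed mainly through the ca-Nfatc1 libraries, where it was highest. The count of members that fell with ca-Nfatc1 was 6 instead of 3 once the day entered the fit as a replicate block, through Lhx1 (adjusted p = 0.0286), Zfhx3 (0.0181) and Zfhx4 (0.0274), and it was 5 without GFP replicate 1 and 5 without ca-Nfatc1 replicate 3. The only member higher with ca-Nfatc2 than with ca-Nfatc1 was Pbx4, and leaving out ca-Nfatc1 replicate 3 made the count 2.

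**Figure D1:**
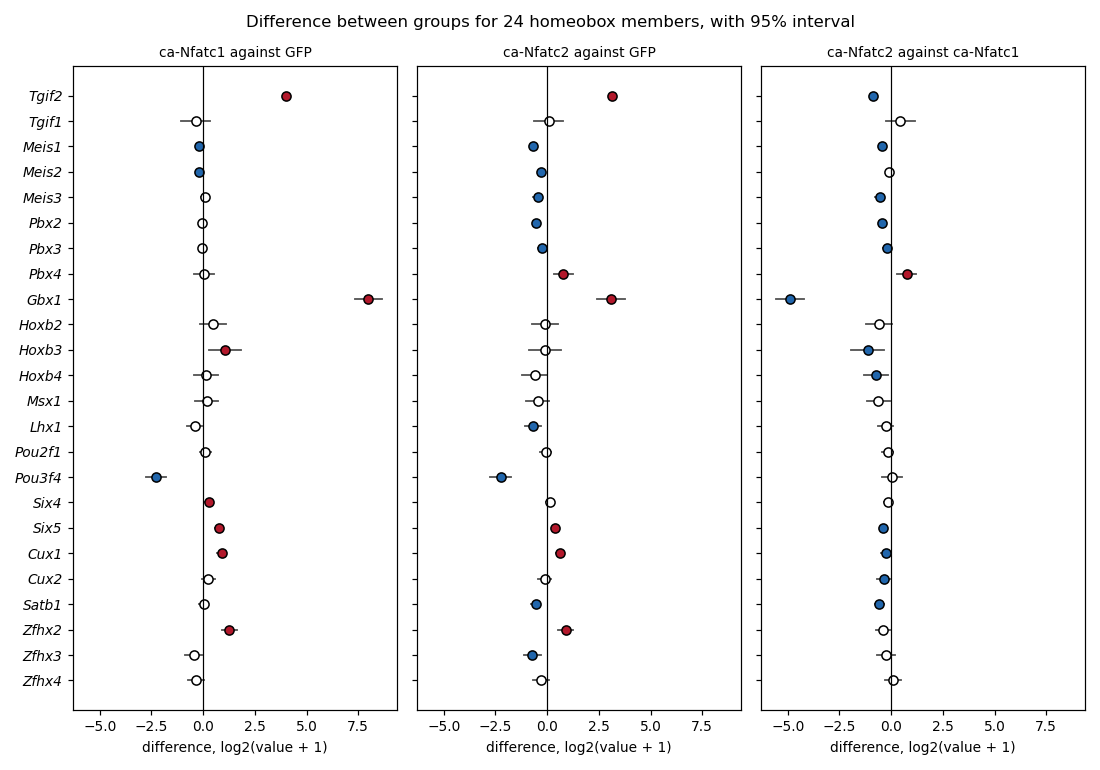
Difference between groups in log2(value + 1) for 24 of the 27 members tested, with 95% intervals from limma (5 libraries per group); red points were called higher, blue points lower and white points were not called at an adjusted p under 0.05. Hoxc10 is left out because it is listed at 0 in all 5 GFP libraries. Gbx1 and Tgif2 lie far to the right in both comparisons with GFP, Pou3f4 lies at -2.28 and -2.25, and the right panel shows Gbx1 at -4.90.

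Tgif2 (chr2:156839817-156855570) had the largest difference from GFP of the 18 members above 10 in every library. It encodes a TALE homeodomain repressor that binds Smad proteins and limits TGF-beta-induced transcription. Its level was 96.0, 96.8, 98.4, 88.8 and 89.7 normalized expected counts in GFP replicates 1 to 5, 1473, 1392, 1608, 1568 and 1600.3 in the ca-Nfatc1 libraries and 767, 846, 797, 906 and 884 in the ca-Nfatc2 libraries. The 3 groups did not overlap, and every ca-Nfatc1 library was above every ca-Nfatc2 library. Means ± SD were 93.9 ± 4.37 (GFP), 1528 ± 93.3 (ca-Nfatc1) and 839.7 ± 58.1 (ca-Nfatc2) (n = 5 each). On the log2 scale the difference from GFP was 4.01 ± 0.067 (SE, adjusted p = 6.19e-18) with ca-Nfatc1 and 3.15 ± 0.067 (SE, adjusted p = 1.31e-16) with ca-Nfatc2, and ca-Nfatc2 stood -0.86 ± 0.067 (SE, adjusted p = 1.70e-08) from ca-Nfatc1. In GENCODE, 56.7% of the exon bases of Tgif2 are shared with 5430405H02Rik on the opposite strand, and whether reads were counted by strand is not given in the sources used here, so reads of that transcript cannot be told apart from those of Tgif2.

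The sequences before the starts of Tgif2 and of Pou3f4, the member that fell most with both factors, are shown because these genes moved in opposite directions. They are from RefSeq (GRCm38.p6, plus strand, 5′ to 3′), with GGAAA or its reverse complement TTTCC in capitals. The Tgif2 stretch is chr2:156839757-156839816, 60 bases that end just before the first base of the gene in RefSeq, and the Pou3f4 stretch is chrX:110814129-110814279, 151 bases that end just before its first exon in GENCODE.
Tgif2: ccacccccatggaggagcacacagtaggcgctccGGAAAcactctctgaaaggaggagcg
Pou3f4: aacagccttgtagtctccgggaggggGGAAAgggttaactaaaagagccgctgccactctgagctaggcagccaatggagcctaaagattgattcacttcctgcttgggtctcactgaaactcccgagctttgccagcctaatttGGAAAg
The Tgif2 stretch holds 1 match and the longer Pou3f4 stretch holds 2. Among the 27 members, 19 had promoters in the RefSeq table, 31 in all, and 54.8% of these held GGAAA on either strand in the 250 bases before the listed transcript start, compared with 55.6% of all 32851 promoters. These are matches of letters and not measured binding sites.

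The other Tgif repressor of the islets, Tgif1, was not called in any comparison. Its level was 93.1, 102, 135, 139 and 195 normalized expected counts in GFP replicates 1 to 5, 90.8, 94.1, 107, 86.8 and 127 in the ca-Nfatc1 libraries and 84.9, 84.7, 93.7, 399 and 174 in the ca-Nfatc2 libraries. The groups overlapped, and ca-Nfatc2 replicate 4 was far above the other 4 libraries of its group. The differences from GFP were -0.36 ± 0.33 (SE, adjusted p = 0.377) with ca-Nfatc1 and 0.09 ± 0.33 (SE, adjusted p = 0.831) with ca-Nfatc2, with 95% intervals of -1.06 to 0.35 and -0.62 to 0.79.

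**Figure D2:**
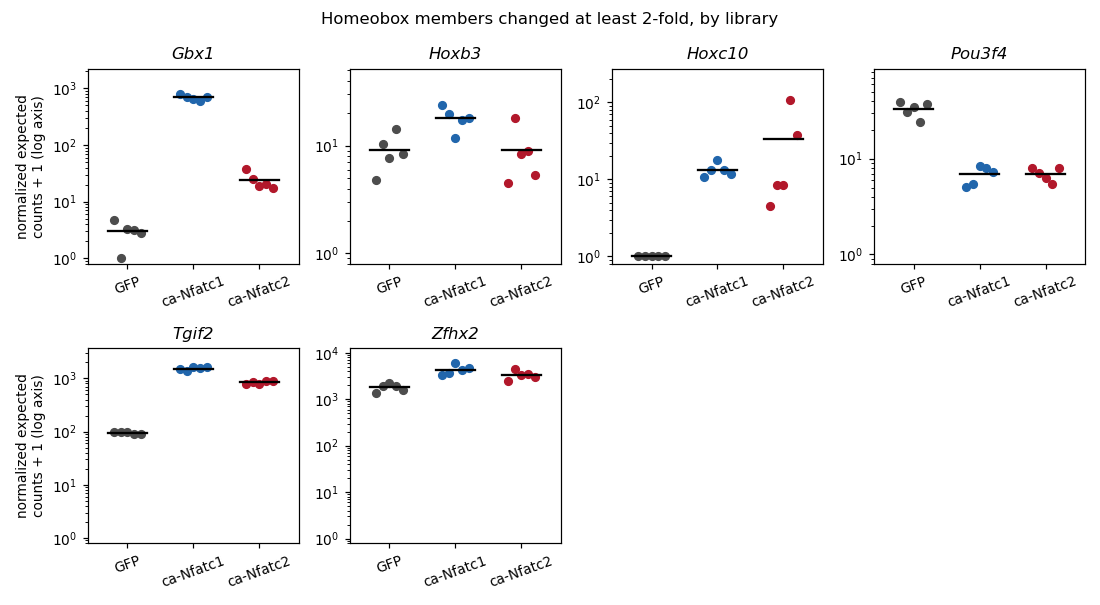
Level in each library (points, replicates 1 to 5 from left to right) of 6 members with a called difference of at least 1 on the log2 scale in any comparison, as normalized expected counts + 1 on a log axis; the line is the group mean. Gbx1 and Tgif2 show 3 groups that do not overlap, Hoxc10 is at 0 in the 5 GFP libraries, and the GFP libraries of Pou3f4 lie above those of both other groups.

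Gbx1 (chr5:24504426-24526848) had the largest difference between the 2 NFAT forms among the 27 members. It is a factor of the developing spinal cord and forebrain. It was at 3.84, 0, 2.24, 2.22 and 1.84 normalized expected counts in GFP replicates 1 to 5, 802, 712, 657, 597 and 691 in the ca-Nfatc1 libraries and 37.2, 24.6, 17.9, 19.5 and 16.6 in the ca-Nfatc2 libraries. Every ca-Nfatc1 library was at least 597, every ca-Nfatc2 library was between 16.6 and 37.2, and no GFP library exceeded 3.84. The differences from GFP on the log2(value + 1) scale were 7.997 ± 0.32 (SE) with ca-Nfatc1 and 3.10 ± 0.32 (SE) with ca-Nfatc2. With so few reads in the GFP libraries the added 1 lowers both. Gbx1 passed the limit through libraries of the ca forms alone, so no p-value is given for these differences. Ca-Nfatc2 stood -4.90 ± 0.32 (SE, adjusted p = 2.02e-09) from ca-Nfatc1. In the ratio of means, ca-Nfatc2 reached 0.0335 of the ca-Nfatc1 level. The related Gbx2 did not pass the limit, with group means of 0, 0.164 and 0.877 for GFP, ca-Nfatc1 and ca-Nfatc2.

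Hox genes give positional identity along the body axis, and the 4 that passed the limit had few reads. Hoxc10 (chr15:102966796-102971898), a posterior member, was listed at 0 in all 5 GFP libraries, at 9.82, 12.2, 17.1, 12.1 and 10.9 normalized expected counts with ca-Nfatc1 and at 3.46, 7.37, 7.37, 108 and 36.8 with ca-Nfatc2. Each of the 10 libraries with a ca form was above each GFP library, and the ca-Nfatc2 libraries were spread widely, with replicates 4 and 5 highest. Hoxc10 passed the limit through libraries of the ca forms alone, so no test against GFP is given. No fold is given against a group at 0. In GENCODE 8.7% of its exon bases are shared with Hoxc5, whose mean was at most 1.24 in any group. The difference between the ca forms was not called (adjusted p = 0.687, 0.34 on the log2 scale, 95% interval -0.98 to 1.66) and was -0.34 without ca-Nfatc2 replicate 4 (adjusted p = 0.585). Its neighbours in the cluster did not pass the limit: the mean of Hoxc9 was at most 2.42 in any group, that of Hoxc11 at most 0.369, and Hoxc12 and Hoxc13 were at 0 in every library.

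Hoxb3 (chr11:96307101-96347930), an anterior Hox gene, was at 3.84, 9.41, 6.71, 13.3 and 7.37 normalized expected counts in GFP replicates 1 to 5, 22.9, 18.8, 10.7, 16.1 and 17.1 in the ca-Nfatc1 libraries and 3.46, 17.2, 7.37, 7.97 and 4.38 in the ca-Nfatc2 libraries. Its groups overlapped, although the ca-Nfatc1 libraries were mostly the highest. The difference was 1.04 ± 0.37 (SE, adjusted p = 0.0228) for ca-Nfatc1 against GFP and -1.14 ± 0.37 (SE, adjusted p = 0.0162) for ca-Nfatc2 against ca-Nfatc1, and -0.10 (adjusted p = 0.819) for ca-Nfatc2 against GFP. Hoxb3 passed the limit mainly through the ca-Nfatc1 libraries, so the filter favoured the first 2 of these tests. No conclusion is drawn from their p-values. The call of ca-Nfatc1 against GFP was lost without GFP replicate 1 (adjusted p = 0.0658) or ca-Nfatc1 replicate 1 (0.0573), and after quantile normalization (0.408). Quantile normalization put the ca-Nfatc2 difference from GFP at -1.10 and called it lower (adjusted p = 0.0345). Of its exon bases, 52.9% are shared with the antisense transcript Hoxb3os, so the 2 cannot be told apart without strand. Hoxb2, of which 27.3% is shared with the same transcript, had means of 14.9 ± 2.91 (GFP), 22.0 ± 7.17 (ca-Nfatc1) and 14.6 ± 5.55 (ca-Nfatc2), and Hoxb4 of 18.1 ± 2.11 (GFP), 21.2 ± 8.15 (ca-Nfatc1) and 11.8 ± 3.52 (ca-Nfatc2). Neither was called against GFP. Hoxb4 was lower with ca-Nfatc2 than with ca-Nfatc1, -0.74 ± 0.28 (SE, adjusted p = 0.0352), and that call was lost without any 1 of ca-Nfatc1 replicate 2 (0.0929), ca-Nfatc1 replicate 3 (0.0644), ca-Nfatc1 replicate 5 (0.101), ca-Nfatc2 replicate 1 (0.0715), ca-Nfatc2 replicate 3 (0.0824) and ca-Nfatc2 replicate 5 (0.0649), adjusted p in parentheses. Against GFP, Hoxb4 was called lower with ca-Nfatc2 after quantile normalization (-1.18, adjusted p = 0.00208), with no variance trend (0.0474) or without ca-Nfatc1 replicate 4 (0.0212) or ca-Nfatc2 replicate 2 (0.0292), from -0.61 (adjusted p = 0.0602) with every library. Hoxb2 was called lower with ca-Nfatc2 than with ca-Nfatc1 without ca-Nfatc1 replicate 4 (adjusted p = 0.0327), from -0.59 (adjusted p = 0.119) with every library.

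Pou3f4 (chrX:110814379-110819108) was the member that fell most with both factors. It is a POU factor of alpha cells that binds the promoter of the glucagon gene. Its level was 38.4, 29.6, 33.5, 23.3 and 35.9 normalized expected counts in GFP replicates 1 to 5, 4.09, 4.43, 7.47, 7.06 and 6.22 in the ca-Nfatc1 libraries and 6.93, 6.14, 5.26, 4.43 and 7.01 in the ca-Nfatc2 libraries. Every GFP library was above every library of the ca forms, and the ca-Nfatc1 and ca-Nfatc2 libraries overlapped. The differences from GFP were -2.28 ± 0.24 (SE) with ca-Nfatc1 and -2.25 ± 0.24 (SE) with ca-Nfatc2. Pou3f4 passed the limit through the GFP libraries alone, so no p-value is given for these differences. The difference between the ca forms was 0.04 ± 0.24 (SE, adjusted p = 0.915) with a 95% interval of -0.46 to 0.53. Among alpha cell markers, of 4 (Gcg, Irx1, Irx2 and Ttr) 2 were lower with ca-Nfatc1 and 4 with ca-Nfatc2, none was at 0, and their summed level ran from 379685 to 602856 in the GFP libraries, 216442 to 262965 for ca-Nfatc1 and 164672 to 221930 for ca-Nfatc2. Of all genes tested, 28.4% were lower with ca-Nfatc1 and 32.8% with ca-Nfatc2. The part of alpha cells in the fall of Pou3f4 was not tested. Pou2f1, the widely expressed octamer-binding factor Oct-1, was not called, with means of 581 ± 44.3 (GFP), 631 ± 122 (ca-Nfatc1) and 559 ± 117 (ca-Nfatc2). Without ca-Nfatc2 replicate 2, which stood apart in that group, it was called lower with ca-Nfatc2 than with ca-Nfatc1 (adjusted p = 0.0368). In GENCODE 18.1% of its exon bases are shared with Cd247 on the opposite strand.

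The Meis and Pbx genes, cofactors that set where Hox and other homeodomain proteins bind, split in direction. Pbx4 rose with ca-Nfatc2. Its means were 11.2 ± 2.36 (GFP), 11.6 ± 2.80 (ca-Nfatc1) and 19.8 ± 2.84 (ca-Nfatc2), the differences from GFP were 0.05 (adjusted p = 0.876) with ca-Nfatc1 and 0.79 (adjusted p = 0.00461) with ca-Nfatc2, and ca-Nfatc2 exceeded ca-Nfatc1 by 0.74 ± 0.22 (SE, adjusted p = 0.0106). All 5 ca-Nfatc2 libraries (17.3, 18.4, 22.9, 22.9 and 17.6) were above the 10 others. After quantile normalization the difference from GFP was not called (adjusted p = 0.269).

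Pbx2 and Pbx3 fell with ca-Nfatc2. Pbx2 was at 924, 914, 1008, 1005 and 815 normalized expected counts in GFP replicates 1 to 5, 828, 971, 933, 863 and 856 in the ca-Nfatc1 libraries and 666, 657, 662, 623 and 642 in the ca-Nfatc2 libraries. The 5 ca-Nfatc2 libraries lay below all GFP and ca-Nfatc1 libraries, and the latter 2 groups overlapped. The differences were -0.07 (adjusted p = 0.408) for ca-Nfatc1 against GFP, -0.52 ± 0.066 (SE, adjusted p = 1.97e-06) for ca-Nfatc2 against GFP and -0.45 ± 0.066 (SE, adjusted p = 2.41e-05) for ca-Nfatc2 against ca-Nfatc1. Pbx3 was at 990.1, 978, 978, 1032 and 856 normalized expected counts in GFP replicates 1 to 5, 913, 1078, 859, 950.3 and 909 in the ca-Nfatc1 libraries and 877, 823, 901, 671 and 809 in the ca-Nfatc2 libraries. Here the groups overlapped, with -0.04 (adjusted p = 0.702) for ca-Nfatc1 and -0.25 ± 0.082 (SE, adjusted p = 0.0125) for ca-Nfatc2 against GFP. Its difference between the ca forms, -0.21 ± 0.082 (SE, adjusted p = 0.0428), was lost without any 1 of GFP replicate 2 (0.0519), ca-Nfatc1 replicate 1 (0.0522), ca-Nfatc1 replicate 2 (0.124), ca-Nfatc1 replicate 4 (0.0736), ca-Nfatc1 replicate 5 (0.0554), ca-Nfatc2 replicate 2 (0.0603), ca-Nfatc2 replicate 4 (0.125) and ca-Nfatc2 replicate 5 (0.0703), adjusted p in parentheses.

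The 3 Meis genes fell, all of them with ca-Nfatc2. Meis2, which had the most reads with GFP of the 27 (not per length), was at 2093, 2213, 2495, 2241 and 2257 normalized expected counts in GFP replicates 1 to 5, 1800.3, 2122, 1999, 1950.1 and 1951 in the ca-Nfatc1 libraries and 1692, 1868, 2047, 1664 and 1844 in the ca-Nfatc2 libraries. The ca-Nfatc2 libraries were all below the GFP libraries, and the ca-Nfatc1 libraries overlapped with both. The differences from GFP were -0.20 ± 0.066 (SE, adjusted p = 0.0150) and -0.31 ± 0.066 (SE, adjusted p = 0.000452), and between the ca forms -0.11 (adjusted p = 0.181). Meis1 had means of 424 ± 19.6 (GFP), 368 ± 9.67 (ca-Nfatc1) and 267 ± 12.5 (ca-Nfatc2), with -0.20 ± 0.062 (SE, adjusted p = 0.00998) and -0.66 ± 0.062 (SE, adjusted p = 4.01e-08) against GFP and -0.46 ± 0.062 (SE, adjusted p = 9.92e-06) between the ca forms. Meis3 had means of 595 ± 55.2 (GFP), 638 ± 72.0 (ca-Nfatc1) and 432 ± 53.1 (ca-Nfatc2). It was not called with ca-Nfatc1, 0.10 (adjusted p = 0.414), and was lower with ca-Nfatc2, -0.46 ± 0.097 (SE, adjusted p = 0.000383) against GFP and -0.56 ± 0.097 (SE, adjusted p = 0.000129) against ca-Nfatc1. The smaller falls with ca-Nfatc1 depended on scaling: with the libraries set to equal totals, Meis1 and Meis2 were no longer called, at adjusted p of 0.0594 and 0.107. Some markers of other islet cells were lower as well with ca-Nfatc2: 5 of 9 mesenchymal markers, whose summed level ran from 4012 to 7077 in the GFP libraries and 2611 to 4527 with ca-Nfatc2, 5 of 7 endothelial markers (2733 to 3985 and 2282 to 2900) and 7 of 8 Schwann and neuron markers tested (3020 to 3757 and 2733 to 3260). The share called lower across every gene fitted was 32.8%. None of the markers in these lists averaged below 1. The endothelial list and the Schwann and neuron list each held 1 marker called higher. Of the ductal markers tested 3 were higher and 1 lower, and of the leukocyte markers 2 were higher and 3 lower. The part of other cells in the falls was not tested.

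**Figure D3:**
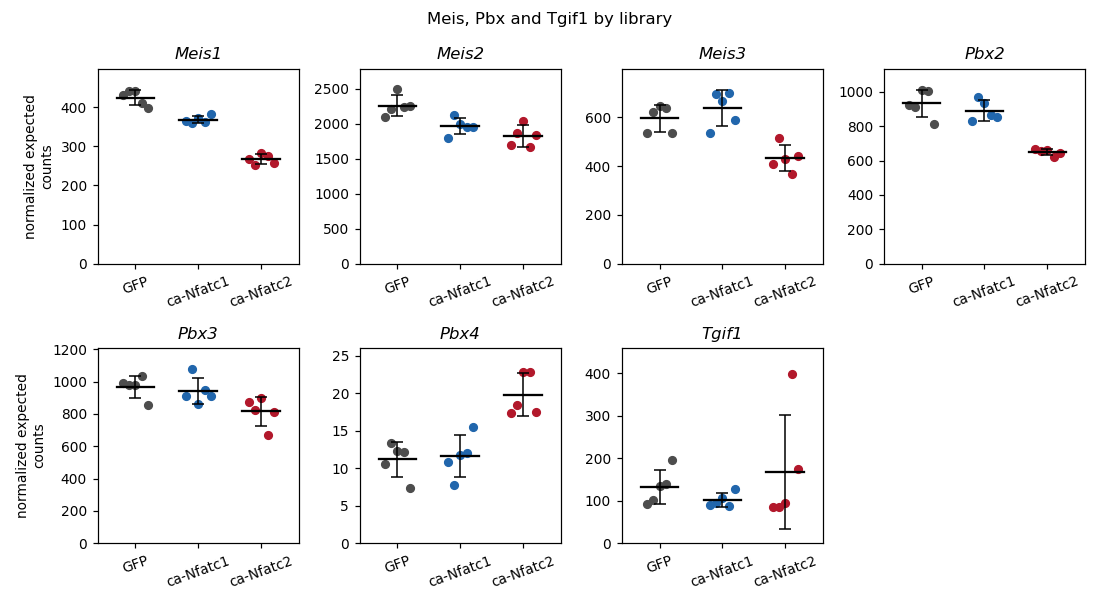
Level in each library (points, replicates 1 to 5 from left to right) of Meis1 to Meis3, Pbx2 to Pbx4 and Tgif1 in normalized expected counts, from 0; the horizontal line is the group mean and the bar its SD (n = 5). Pbx2 and Meis1 are lowest with ca-Nfatc2, and Pbx4 is highest with ca-Nfatc2.

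Of the large CUT and zinc finger homeodomain proteins, Cux1 and Zfhx2 rose with both ca forms. Cux1, a CUT-domain factor linked to cell cycle control, was at 695, 918, 962, 1008 and 901 normalized expected counts in GFP replicates 1 to 5, 1407, 1640.5, 1774, 1697 and 1798 in the ca-Nfatc1 libraries and 1323, 1569.8, 1479.5, 1251 and 1292 in the ca-Nfatc2 libraries. No GFP library reached the lowest library of either ca form. The differences from GFP were 0.90 ± 0.097 (SE, adjusted p = 3.63e-07) and 0.63 ± 0.097 (SE, adjusted p = 1.64e-05). The difference between the ca forms, -0.27 ± 0.097 (SE, adjusted p = 0.0303), was lost without any 1 of ca-Nfatc1 replicate 3 (0.0672), ca-Nfatc1 replicate 4 (0.0578), ca-Nfatc1 replicate 5 (0.0744), ca-Nfatc2 replicate 1 (0.0574), ca-Nfatc2 replicate 4 (0.0713) and ca-Nfatc2 replicate 5 (0.0692), adjusted p in parentheses. Cux2, its counterpart in upper-layer cortical neurons, had means of 351 ± 79.9 (GFP), 409 ± 45.8 (ca-Nfatc1) and 319 ± 53.9 (ca-Nfatc2) and was not called against GFP (0.24 and -0.12, adjusted p = 0.168 and 0.475). Its difference between the ca forms, -0.37 ± 0.15 (SE, adjusted p = 0.0477), was lost without any 1 of GFP replicate 2 (0.0550), ca-Nfatc1 replicate 2 (0.0637), ca-Nfatc1 replicate 3 (0.0961), ca-Nfatc1 replicate 4 (0.0943), ca-Nfatc1 replicate 5 (0.0953), ca-Nfatc2 replicate 1 (0.0877), ca-Nfatc2 replicate 4 (0.110) and ca-Nfatc2 replicate 5 (0.104), adjusted p in parentheses.

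Zfhx2 (chr14:55060268-55092381), a zinc finger homeobox gene best known from neurons, was at 1339, 1918, 2231, 1946 and 1539 normalized expected counts in GFP replicates 1 to 5, 3363, 3707, 5873, 4156 and 4633 in the ca-Nfatc1 libraries and 2508, 4485, 3256, 3407 and 2999 in the ca-Nfatc2 libraries. All 10 libraries of the ca forms were above the highest GFP library. The differences from GFP were 1.27 ± 0.16 (SE, adjusted p = 3.41e-06) and 0.89 ± 0.16 (SE, adjusted p = 0.000121). Between the ca forms it was -0.38 (adjusted p = 0.0631), and the replicate block of days put the adjusted p at 0.00867. Leaving out 1 library also brought it under 0.05, for any 1 of GFP replicate 1 (0.0474), ca-Nfatc1 replicate 1 (0.0299) and ca-Nfatc2 replicate 2 (0.0170), adjusted p in parentheses. In GENCODE 17.9% of its exon bases are shared with the antisense transcript Zfhx2os and others with Gm20687, and reads of these could not be set apart.

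Zfhx3, a large factor of the circadian pacemaker among other tissues, fell with ca-Nfatc2, from means of 354 ± 58.8 to 217 ± 56.2, -0.72 ± 0.20 (SE, adjusted p = 0.00391). With ca-Nfatc1 its mean was 264 ± 90.4, -0.46 (adjusted p = 0.0568), and it was called lower with the day as a replicate block (0.0181) or without any 1 of GFP replicate 1 (0.0233), ca-Nfatc1 replicate 3 (0.00620) and ca-Nfatc2 replicate 2 (0.0399), adjusted p in parentheses. Zfhx4 was not called, with means of 67.8 ± 15.2 (GFP), 52.6 ± 13.0 (ca-Nfatc1) and 54.2 ± 7.47 (ca-Nfatc2), but was lower with ca-Nfatc1 with the replicate block (adjusted p = 0.0274) or without ca-Nfatc1 replicate 3 (0.0362). After quantile normalization Zfhx4 was called lower with both ca forms, at -0.62 (adjusted p = 0.00347) and -0.60 (0.00341), from -0.37 and -0.30, and Zfhx3 with ca-Nfatc1 (0.0189).

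Satb1 organises chromatin loops, chiefly in T cells. Satb1 was lower with ca-Nfatc2, -0.55 ± 0.11 (SE, adjusted p = 0.000217) against GFP and -0.57 ± 0.11 (SE, adjusted p = 0.000313) against ca-Nfatc1, from means of 747 ± 96.1 (GFP), 757 ± 90.9 (ca-Nfatc1) and 509 ± 68.9 (ca-Nfatc2). The T cell marker Cd3e averaged below 1 normalized expected count in each group.

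Among sine oculis factors, which act in muscle, kidney and sense organ development, Six4 and Six5 passed the limit. Six5 rose with both ca forms, from 187 ± 21.4 with GFP to 320.4 ± 25.1 for ca-Nfatc1 and 246 ± 12.4 for ca-Nfatc2, 0.78 ± 0.086 (SE, adjusted p = 4.87e-07) and 0.40 ± 0.086 (SE, adjusted p = 0.000523). It was lower with ca-Nfatc2 than with ca-Nfatc1, -0.38 ± 0.086 (SE, adjusted p = 0.00141). Six4 rose with ca-Nfatc1, 0.29 ± 0.097 (SE, adjusted p = 0.0172), a call lost after quantile normalization (0.105), and its difference with ca-Nfatc2 was 0.14 (adjusted p = 0.197), where the means were 352 ± 36.7 (GFP), 429 ± 24.6 (ca-Nfatc1) and 391 ± 57.1 (ca-Nfatc2). Six2 and Six3, which mark adult beta cells in human islets, were not above the limit in these mouse islets: Six2 was at most 2.13 in any library, and Six3 was at 1.15, 0, 0, 1.23 and 0.682 with GFP, 0.818, 1.12, 0, 0.968 and 0 for ca-Nfatc1 and 2.61, 3.68, 3.16, 10.6 and 7.06 for ca-Nfatc2. All 5 ca-Nfatc2 libraries of Six3 were above the 10 others, at levels under the limit for testing.

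Lhx1, a LIM-homeodomain factor of kidney and head development, fell with ca-Nfatc2, -0.68 ± 0.18 (SE, adjusted p = 0.00283), from 145 ± 15.8 to 93.8 ± 32.8. With ca-Nfatc1 it was at 109 ± 11.0, -0.41 (adjusted p = 0.0614), and was called lower with the replicate block (0.0286) or without any 1 of GFP replicate 1 (0.0482), ca-Nfatc2 replicate 1 (0.0370) and ca-Nfatc2 replicate 4 (0.0228), adjusted p in parentheses. Between the ca forms it was called lower only without ca-Nfatc2 replicate 4 (0.0287), from -0.27 (adjusted p = 0.226) with every library. Msx1, a repressor of limb and tooth development, lay near the limit with means of 11.9 ± 3.26 (GFP), 13.2 ± 2.40 (ca-Nfatc1) and 8.44 ± 2.58 (ca-Nfatc2), and was not called in any comparison. It was called lower with ca-Nfatc2 than with ca-Nfatc1 with the replicate block (0.0489), or without GFP replicate 2 (0.0436) or ca-Nfatc2 replicate 1 (0.0415), and lower than GFP without GFP replicate 2 (0.0418). With no variance trend it was called between the ca forms (0.0292), and after quantile normalization it was called lower with ca-Nfatc2 against both GFP (-1.16, adjusted p = 0.000766, from -0.45) and ca-Nfatc1 (-0.81, adjusted p = 0.0158, from -0.62). Quantile normalization also called Lhx1 lower with ca-Nfatc1 (0.00998).

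The 75 members at or below the limit of 10 were left out of the tests above. Of these, 10 were at 0 in every library (Hoxb13, Hoxc12, Hoxc13, Hoxd1, Hoxd11, Hoxd12, Msx3, Six6, Tgif2lx1 and Tgif2lx2) and 9 had a library above 10, among them Hoxa3, Hoxa5, Hoxb5, Lhx2, Lhx6, Dlx1, Pou2f2 and Six3. Lhx2, a LIM factor of forebrain and eye, was listed at 0 in the 5 GFP libraries, at 4.91, 5.53, 6.40, 3.03 and 9.34 with ca-Nfatc1 and at 4.33, 1.23, 4.21, 35.4 and 8.76 with ca-Nfatc2, so that all 10 libraries of the ca forms held some reads. Dlx1 had means of 7.77 ± 3.67 (GFP), 2.71 ± 1.55 (ca-Nfatc1) and 1.90 ± 1.63 (ca-Nfatc2) and Hoxa3 of 6.94 ± 4.16 (GFP), 3.35 ± 2.35 (ca-Nfatc1) and 2.10 ± 1.42 (ca-Nfatc2). The next below the limit were Lhx6 and Hoxb5, with 75th percentiles of 9.52 and 7.83, and the first above it were Hoxc10 and Msx1, with 12.1 and 13.3.

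Partner proteins of these factors, none of them homeobox members of the rule, were taken as lists, and the difference of a list is described and not tested. Of 10 partners of LIM factors, 2 rose and 6 fell in the ca-Nfatc1 islets, and 1 rose and 6 fell in the ca-Nfatc2 islets, with medians of -0.43 and -0.70 on the log2 scale. Beside these lists, the shares called up and down across every gene fitted were 28.4% and 28.4% for ca-Nfatc1. For ca-Nfatc2 they were 35.7% and 32.8%. The medians across every gene fitted were -0.02 and 0.01. Ldb1, the adaptor that joins LIM factors into complexes, fell by 0.45 (adjusted p = 1.91e-05) and fell by 0.79 (1.37e-08). The LIM-only gene Lmo3 was at -1.17 and -1.69 (adjusted p = 0.00283 and 7.49e-05), and Lmo1 at -0.58 and -1.38 (0.0110 and 2.36e-06). Ssbp3, which stabilises Ldb1, rose with ca-Nfatc1, 0.68 (adjusted p = 3.18e-05), and was at 0.21 (adjusted p = 0.0843) with ca-Nfatc2. Of 5 partners of sine oculis factors that passed the limit, 1 was higher and 3 lower with each ca form. The lower counts include Eya4, which passed the limit mainly through the GFP libraries, where it was highest. Dach1, a co-repressor, was at -0.63 and -1.11 (0.000383 and 4.85e-07), whereas Dach2 was at 0.39 and 0.64 (0.0297 and 0.000824). Eya1, a phosphatase and co-activator, was at -0.03 (adjusted p = 0.704) with ca-Nfatc1 and -0.95 (adjusted p = 4.89e-10) with ca-Nfatc2.

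Pbxip1, a protein that binds Pbx factors and keeps them from DNA, had the largest difference among the partners named. It fell by 1.42 with ca-Nfatc1 (adjusted p = 7.16e-08) and fell by 1.99 with ca-Nfatc2 (5.67e-10), from 1346, 1777, 2034, 1934 and 1977 normalized expected counts with GFP to 518, 664, 767, 728 and 693 and 364, 378, 479.6, 541 and 523. The 5 GFP libraries did not overlap with the rest. The TALE factors Pknox1 and Pknox2 were at -0.20 and 0.04 and at 0.47 and -0.30, of which only the first was called (adjusted p = 0.00773). Of the 3 tested partners of Tgif and Pou factors, the co-repressor scaffold Sin3a rose with ca-Nfatc2, 0.39 (adjusted p = 1.34e-05), as did Smad2, 0.28 (adjusted p = 0.00108), and neither was called with ca-Nfatc1 (0.10 and 0.05). Smad3 was not called in either.

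**Figure D4:**
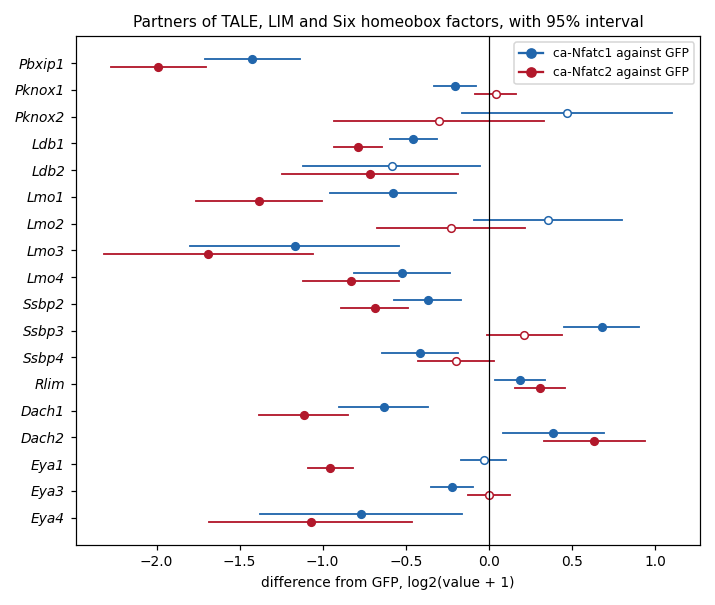
Difference from GFP in log2(value + 1) with 95% intervals from limma for 18 partner genes of TALE, LIM and sine oculis factors, with ca-Nfatc1 in blue and ca-Nfatc2 in red (5 libraries per group); filled points passed an adjusted p of 0.05. Pbxip1, Lmo3, Lmo1 and Dach1 lie to the left of 0 with both, and Ssbp3 and Dach2 to the right. Eya4 passed the limit of 10 mainly through the GFP libraries.

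Among endocrine homeobox factors outside the rule, more were lower than higher. Of the 13 that passed the limit, 3 rose and 6 fell in the ca-Nfatc1 islets, and 3 rose and 9 fell in the ca-Nfatc2 islets, with medians of -0.29 and -0.64. Across every gene fitted, 28.4% rose and 28.4% fell in the former, and 35.7% rose and 32.8% fell in the latter. Of the 27 members, 10 were higher and 3 lower, and 8 higher and 9 lower. These higher counts include Gbx1 and Hoxc10, which passed the limit through libraries of the ca forms alone. The higher count with ca-Nfatc1 also includes Hoxb3, which passed mainly through the ca-Nfatc1 libraries. Both lower counts include Pou3f4, which passed through the GFP libraries alone. Isl1 was at 2.06 (adjusted p = 6.10e-11) and 0.50 (adjusted p = 0.00114), and Prox1 at 2.07 and 1.53, whereas Hhex of delta cells was at -2.13 and -2.40. Whether the 2 sets of genes differ in direction was not tested.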

How the data were processed

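Per the labels and the study's methods, total RNA of whole islets was sequenced on an Illumina HiSeq, reads were mapped with Bowtie to RefSeq transcripts (mm10) and expected counts per gene were estimated with RSEM. The authors divided these by median-by-ratio size factors, and the deposited values are this normalized signal, not whole counts: they are not scaled to length, and whether strand was used is not given in the sources used here. The depth per library is given above. Another 11 columns hold the authors' own means, ratios and posterior probabilities from EBSeq, and a second table their differentially expressed genes. Neither was used.

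Replicates 1 to 5 were numbered by the day in the labels. The filter was a 75th percentile above 10 over the 15 libraries (14151 entries passed). log2(value + 1) was fitted with limma 3.58.1 in R 4.3.3 (lmFit, eBayes with trend) by group over the 15 libraries, with Benjamini-Hochberg adjustment over 14151 entries, two-sided, threshold 0.05. This test replaces count models because the values are not whole reads. The script was tested on simulated data. Intervals are 95% intervals of limma. The median SE of a difference was 0.25 on the log2 scale in 3226 genes averaging under 100 and 0.089 in the other 10925. Same-day libraries of different groups come from 1 pool of mice, and their residuals had a mean correlation of 0.219 (0.0544 to 0.473, 15 pairs) against -0.0551 between days, so the day pairs the libraries and was fitted as a replicate block as an alternative. The main fit had no day term, so its p-values rest on the spread between the 5 libraries of a group, each from another pool. They do not measure the spread of the difference within a pool.

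Values in every library are given for members with an adjusted p under 0.05 and a difference of at least 1 on the log2 scale in any comparison and for the 6 members with the highest GFP mean, with Tgif1, Pbx4 (ca-Nfatc2), Six3 and Lhx2 added after their values were seen. Some genes are not reported here. From each partner list up to 4 called genes with the largest differences are named, with counter-examples. The members and lists were chosen with earlier results of these data known. Alternatives were other pseudocounts (0.1 and 10), filters and scalings, no variance trend, the replicate block and each library left out. All 102 members matched the RefSeq gene table by symbol. Exon overlaps are from GENCODE M21, and gene coordinates and promoters from RefSeq (GRCm38.p6). Python 3.11.15 with pandas 2.3.3 and matplotlib 3.10.9 was used.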

Additional observations from a re-analysis of the deposited data

Results flagged for a closer look

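In 80 groups of 5 libraries (the 27 members in 3 groups, less 1 group at 0), 3 had a highest library whose gap to its nearest neighbour took more than 0.71 of the group's range, and about 1 group in 20 would do so by chance. Tgif1 was at 399 in ca-Nfatc2 replicate 4, where the next library of the group was at 174. Pou2f1 was at 767 in ca-Nfatc2 replicate 2, where the next was at 515. Six5 was at 225 in GFP replicate 3, where the next was at 180.4. Neither Tgif1 nor Pou2f1 was called in any comparison. Six5 was called higher with both ca forms with every library and without any 1 of the 15.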

How the results depend on the processing

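No called difference of a member changed sign under any alternative. With 1 library left out, 1164 of the single-gene calls stayed on their side of the threshold, 19 were gained and 32 lost. Under the other alternatives 667 stayed, 16 were gained and 10 lost. Beside the 3 members lower with ca-Nfatc1 than with GFP there were 6 with no filter on low values, 1 with equal library totals, 6 with quantile normalization, 6 with the replicate block and 3 to 5 with a library left out. With no filter, the members called with ca-Nfatc2 against GFP rose from 17 to 31 (16 higher and 15 lower instead of 8 and 9) and those between the ca forms from 13 to 20 (6 higher instead of 1), because low members entered the test. With a 75th percentile above 100 0 members were higher with ca-Nfatc2 than with ca-Nfatc1, since Pbx4 left the test (0 at an unadjusted p under 0.05 in limma), and with a library left out the count was 1 to 2. The lower count there, 12, ran from 8 to 13. Quantile normalization moved the median over all genes to -0.12 for ca-Nfatc1 and -0.10 for ca-Nfatc2 against GFP, and it lowered Six5 with ca-Nfatc2 to 0.23 and Gbx1 to 2.02. A pseudocount of 10 put Pou3f4 at -1.40 and -1.39 and Gbx1 with ca-Nfatc2 at 1.44. It also shrank Hoxc10, Hoxb3, Hoxb4 and Pbx4 by over 1.5 times, as the added 10 is large beside their counts. Pbx4 kept its calls, and so did Hoxb4 between the ca forms. For Hoxc10 and Hoxb3 the filter favoured the calls, so nothing is drawn from whether they were kept. The call of Cux2 between the ca forms was also lost with no filter (adjusted p = 0.0596), equal totals (0.0566) and no variance trend (0.0655), that of Pbx3 with no variance trend (0.0566), and the cause was not tested. Of the members described, the replicate block changed no call beyond those given in the text. Members near the limit of 10 counts had the widest errors.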

Other observations

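Homeobox genes of families outside both the rule and the endocrine factors were also measured, 87 in the table and 29 above the limit. With ca-Nfatc1 4 of these 29 were higher and 12 lower than with GFP, against 28.4% and 28.4% of all genes tested. With ca-Nfatc2 8 were higher and 10 lower, against 35.7% and 32.8% of all genes tested. The higher count with ca-Nfatc2 includes Emx2, which passed the limit through that group alone. Both lower counts include Barhl1, and the one with ca-Nfatc1 also Meox2, which passed mainly through the GFP libraries, where they were highest. No conclusion is drawn from these counts. Emx2, a factor of the forebrain and the urogenital tract, was listed at 0 in all 10 GFP and ca-Nfatc1 libraries and was at 17.3, 22.1, 19.99, 93.2 and 26.3 normalized expected counts with ca-Nfatc2, so that it had reads in that group alone. It passed the limit through these 5 libraries, so no test of it is given. Meox1, a mesodermal factor, was at 96.9, 68.5, 88.3, 79.2 and 104 with GFP, 442, 460.2, 359, 456 and 351 with ca-Nfatc1 and 393, 336, 319, 374 and 414 with ca-Nfatc2, 2.24 ± 0.12 (SE, adjusted p = 2.64e-11) and 2.07 ± 0.12 (SE, adjusted p = 6.74e-11) on the log2 scale, and no library of the ca forms overlapped with GFP. Hopx, a homeodomain protein that does not bind DNA, was at 1.38 (adjusted p = 1.06e-08) and 0.68 (adjusted p = 4.23e-05). Among those that fell, Lmx1b was at -0.70 and -1.13 (adjusted p = 0.00425 and 4.30e-05) and Barhl1 at -0.94 and -1.63. Barhl1 passed the limit mainly through the GFP libraries, where it was highest, so no p-value is given for it.

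The library ca-Nfatc2 replicate 4 held the highest value of its group for Hoxc10 (108), Tgif1 (399), Lhx2 (35.4), Six3 (10.6), Pou2f2 (10.6) and Emx2 (93.2), a selection made after the values were seen. Over the 60 members at or below the limit with reads in that group it was highest for 23, or 38.3%, over the 27 members above the limit for 7, or 25.9%, and over the 17656 entries of the table with reads in that group for 28.0%. The same library had the highest Nfatc2 value, 89098 against 37600.3 to 58781 in the other 4. No test was made of this.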
